A study of Mus musculus with 11 samples.

Results

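The cytosolic ribosomal protein genes encode the proteins of the ribosome, and their RNA was followed here in the inguinal mammary gland of mice with and without the gene Tsc1 in adipocytes. Members were chosen by symbol (Rpl or Rps followed by a number with its usual suffix letters, plus Rplp0, Rplp1, Rplp2, Rpsa and Fau, without Rps6k kinases and pseudogenes). The rule found 84 of the 22196 genes in the tables: 48 genes of the large subunit, 3 of its stalk and 33 of the small subunit. A further 6 symbols of the annotation fit the pattern but have no entry in the tables, and all are annotated as pseudogenes. The 11 RNA-seq libraries came from whole glands, 6 knockout (Tsc1-fl/fl; Adipoq-Cre-Tg/+) and 5 wild-type (Tsc1-fl/fl; Adipoq-Cre-+/+). Both genotypes carry the floxed Tsc1 alleles, so they differ in the Cre transgene, which the adiponectin promoter drives in adipocytes. By this design, other cells of the gland keep Tsc1 in both. Animals had milk and normal chow, the age label reads PND16.5, and the protocol places tissue collection 16 days after delivery. The titles number the libraries as replicates of each genotype without saying whether each came from a separate mouse, so p-values measure the spread between these libraries.

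Every ribosome holds 1 copy of nearly every ribosomal protein, so cells make these proteins in matched amounts from mRNAs that are among the most abundant and most stable of the cell. Many of the mRNAs begin with a C followed by a run of pyrimidines, the 5′ terminal oligopyrimidine (TOP) tract, through which the kinase complex mTORC1 controls how strongly they are translated. Tsc1 is part of the complex that restrains mTORC1. Translation is not measured by these libraries, which report RNA levels. In the lactating gland, ribosomes serve the synthesis of milk proteins, whose own mRNAs dominate the RNA pool.

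The libraries held between 25758104 and 37820290 reads assigned to genes. A list of 15 milk protein genes took 62.9% to 69.0% of them in knockout and 66.5% to 73.0% in wild-type libraries. Tsc1 itself was at 8.30 to 11.9 CPM (reads per library, brought to one library size with TMM factors) in knockout and 9.55 to 12.2 in wild-type libraries (log2 fold change, log2FC, of -0.09, SE 0.11; adjusted p = 0.772 by edgeR), so the targeted gene did not separate the genotypes in whole gland RNA and does not check the labels. Markers of other cells varied between libraries. Summed CPM of 7 B cell markers was 0.808 to 14.5 in knockout and 1.96 to 74.9 in wild-type libraries, and all 7 had reads, with Cr2, Fcer2a and Ms4a1 among those at 0 in some libraries. The sum of 9 skeletal muscle markers was between 3.01 and 2320 CPM in the knockout libraries and between 1.95 and 221 CPM in the wild-type ones, highest in Knockout 1. All 11 adipocyte markers had reads, with sums from 1610 to 2220 CPM for knockout and from 1170 to 1650 CPM for wild-type libraries.

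For 2 members many or nearly all reads were listed under near-identical copies, and these come first because they limit what the values of these 2 members mean. Of the 84 members, 16 share at least 1 stretch of 31 bases with the coding sequence of another gene counted here. Genes not counted were not compared. Of the 16, 8 share 50% or more of their stretches with one other gene, and reads were added to those of the copy for these 8 only. For 6 of these 8 the copy held almost no reads: Rpl35, Rpl9, Rpl36a, Rpl13a, Rps10 and Rpl29 kept at least 99.7% of the reads of member and copy together. The exceptions were Rps18 and Rps27.

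Rps18, a protein of the small subunit's head, lies at chr17:33951999-33956001 on the minus strand of GRCm38. It has 459 coding bases. The predicted genes Gm10260 (chr13:97760072-97760632, minus strand) and Gm11361 (chr13:28257528-28258134, plus strand) have coding sequences of the same length that are 99.1% and 99.3% identical to it. Counting from the first base of the start codon, with the base of Rps18 first, Gm10260 differs by T186C, A337C, G371A and G431A, and Gm11361 by T11A, A171C and A337C. The stretch from coding base 331 to 435 holds 3 of these positions and shows how little separates the 3 genes. Capitals mark the positions at which at least 1 copy differs.
Rps18: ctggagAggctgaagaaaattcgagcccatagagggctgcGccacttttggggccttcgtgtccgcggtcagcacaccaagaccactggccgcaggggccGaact
Gm10260: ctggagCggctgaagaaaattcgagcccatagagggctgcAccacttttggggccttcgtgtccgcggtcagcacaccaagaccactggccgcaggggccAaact
Gm11361: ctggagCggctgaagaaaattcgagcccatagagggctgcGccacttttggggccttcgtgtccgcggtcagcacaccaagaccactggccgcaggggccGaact

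Rps18 was either near 0 or near 100 CPM. In knockout libraries 1 to 6 it was at 99.5, 0.955, 110.3, 117.7, 115.0 and 115.1 CPM, and in wild-type libraries 1 to 5 at 1.37, 0.752, 1.54, 1.55 and 131.6 CPM. Knockout 2 thus stood with 4 of the wild-type libraries, and Wild-Type 5 with the other 5 knockout libraries. Gm10260 was at 72.3, 160.3, 73.4, 78.99, 79.8 and 77.96 CPM in knockout libraries 1 to 6 and at 182.4, 184.4, 171.9, 143.0 and 96.7 CPM in wild-type libraries 1 to 5. Gm11361 was at 16.8, 41.0, 21.97, 18.6, 19.0 and 19.1 CPM and at 50.3, 50.6, 45.4, 42.9 and 25.02 CPM. Both copies were thus highest in Knockout 2 and Wild-Type 1 to 4, where Rps18 was lowest. The sum of the 3 genes was even, with knockout values of 188.6, 202.3, 205.6, 215.2, 213.8 and 212.1 CPM and wild-type values of 234.1, 235.8, 218.9, 187.4 and 253.3 CPM. Rps18 alone had a log2FC of 1.77 (SE 1.499; adjusted p = 0.662 by edgeR), whereas the sum had -0.13 (SE 0.08; adjusted p = 0.526 by edgeR), so its direction turns on whether the copies are counted with it. Without Wild-Type 5 the value for Rps18 alone was 6.14 (adjusted p = 0.142 by edgeR), and with each other library left out it was between 1.45 and 2.03. The deposited values do not show which of the 3 genes a read came from beyond the quantifier's own assignment. What separates the libraries was not tested. The split did not follow the genotype labels, with Knockout 2 and Wild-Type 5 each on the side of the other genotype. The labels give no genetic background for single libraries, and a part of background or of the deletion at Rps18 was not tested.

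**Figure D1:**
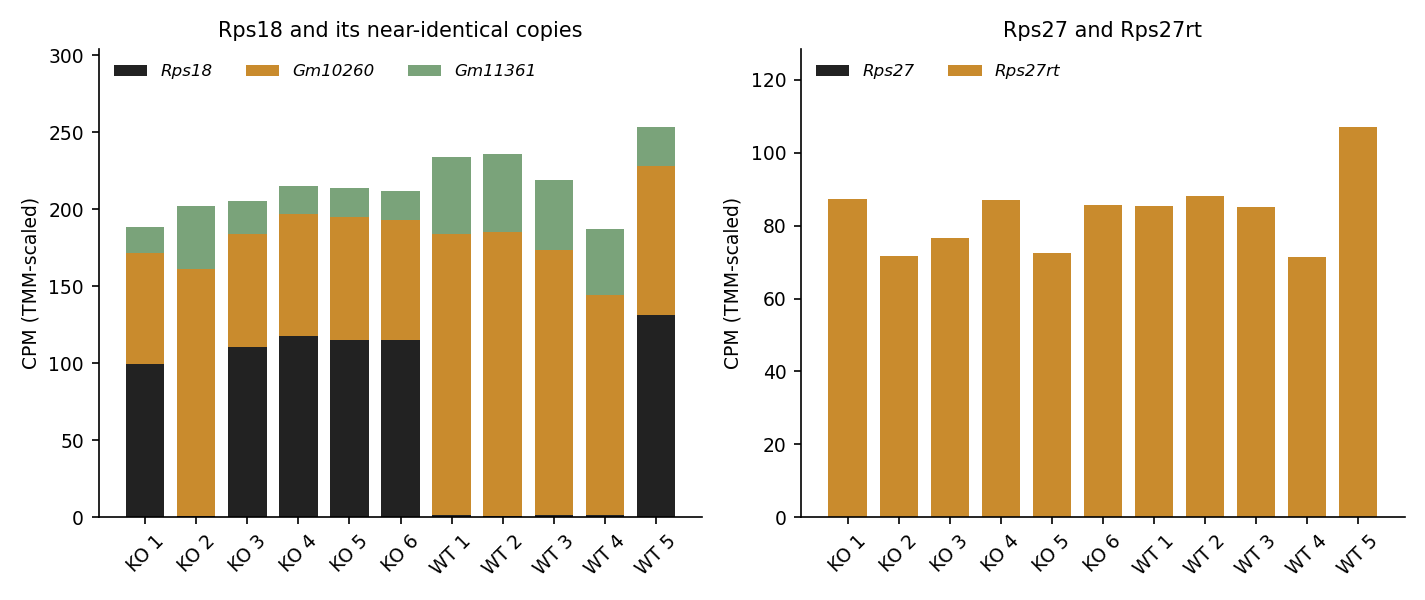
Stacked bars of CPM (y axis, scaled with TMM factors) in each of the 6 knockout (KO) and 5 wild-type (WT) libraries, for Rps18 with Gm10260 and Gm11361 (left) and for Rps27 with Rps27rt (right). Rps18 is under 2 CPM in KO 2 and WT 1 to 4 while the 3-gene sum stays between 187.4 and 253.3 CPM, and nearly all reads of the Rps27 pair are at Rps27rt.

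Rps27, a zinc-binding protein of the small subunit, had 3 reads in Knockout 1, 1 in Knockout 4 and 0 in the 9 other libraries. Its retrogene Rps27rt (chr9:114982366-114982739, minus strand) had 71.8 to 87.3 CPM in knockout libraries and 85.5, 88.2, 85.1, 71.3 and 107.0 CPM in wild-type libraries 1 to 5. The annotated full coding sequence of Rps27, 255 bases, is identical to that of Rps27rt and was not listed under Rps27 in the tables. In all, the tables list no entry for 61 annotated coding transcripts of members, and each of these has a coding sequence identical to a listed one. For 60 of them the listed twin belongs to the same gene, and for Rps27 it belongs to Rps27rt. The low value of Rps27 therefore carries no information on its expression, and reads of the 2 genes cannot be told apart at Rps27rt. Rps27rt did not differ between genotypes beyond the spread of the libraries (log2FC -0.12, SE 0.10; adjusted p = 0.640 by edgeR).

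Of the 84 members, 79 passed the filter on low counts and were tested. The other 5 were Rps27, Rpl41, Rpl10l, Rpl39l and Rpl3l. Rpl41, which encodes the smallest protein of the ribosome in 78 coding bases, had 0 reads in all 11 libraries. Only coding sequences were counted, and this 0 is not read as absence of expression. Rpl10l, a germline paralogue of Rpl10, also had 0 of 344563913 reads, which allows a level of up to 0.00871 CPM over all libraries (3 reads, counting error only). Rpl39l, the germline paralogue of Rpl39, had 0 to 3 reads per library.

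Between members, levels can be compared per length only, as TPM, an abundance corrected for transcript length. The median over the 79 tested members was 363 TPM, the quartiles were 285 and 448 TPM, and all but Rps14, Rpl22l1 and Rpl7l1 lay between 143.2 and 776.8 TPM. The subunits did not stand apart in this range: the median of 44 large-subunit genes was 366 TPM and that of 32 small-subunit genes 368 TPM. The 3 stalk genes had a median of 255 TPM. Across members, read counts rose with coding length (Spearman 0.85 over 79 genes) while TPM did not (Spearman -0.21). Both are descriptions, since the genes share the same libraries.

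The highest level belonged to Rps14, a small-subunit protein of the platform, with knockout values from 912.1 to 1284 TPM (median 1131) and wild-type values of 989.7, 989.0, 857.5, 1043 and 1227 TPM. Rpl23, a large-subunit protein at the interface of the subunits, followed with 801.4 ± 42.4 TPM (knockout, SD, n = 6) and 747.2 ± 72.2 TPM (wild-type, SD, n = 5). Next came Rpl28, Rps24, Rpl26 and Rpl37a, whose means over all libraries were 602.9, 593.3, 573.4 and 567.1 TPM. These 4 differ by less than their own spread between libraries, so their order is not fixed.

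The lowest tested members were paralogues or near copies. Rpl7l1 had 19.0 ± 3.90 TPM (knockout, SD, n = 6) and 15.2 ± 1.71 TPM (wild-type, SD, n = 5). Rpl22l1 had 74.0 ± 7.93 and 57.6 ± 10.8 TPM. Rps18, whose reads are split with its copies, came next at 143.2 TPM, followed by Rps27l at 161.7 TPM. Very short genes carry an added uncertainty in TPM. Rpl39 has 156 coding bases and an effective length of 4.0 bases, so 129 to 267 reads per library became 493.3 TPM, and Rps29, with 171 coding bases and an effective length of 10 bases, reached 519.7 TPM from 326 to 706 reads.

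**Figure D2:**
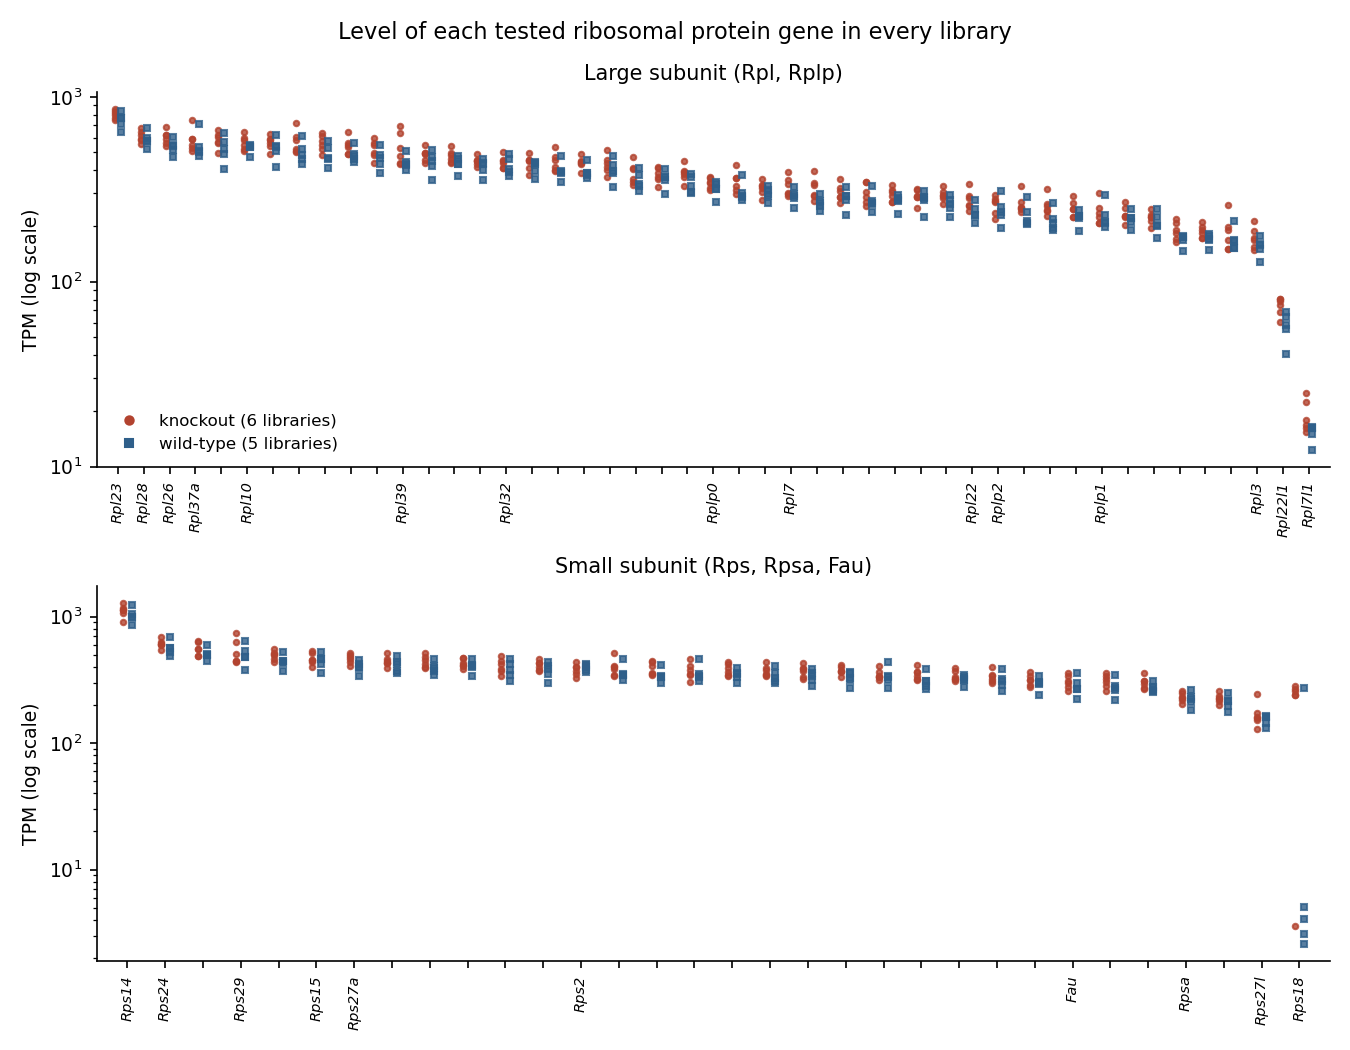
TPM on a log scale (y axis) of the 79 tested members, ordered by mean level, with 1 point for each of the 6 knockout (circles) and 5 wild-type (squares) libraries. Names are given for members chosen by the naming rule. Most genes lie in a narrow band; Rps14 and Rpl23 lie above it and Rpl22l1, Rpl7l1 and 5 of the 11 libraries for Rps18 below it.

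For 50 members with reads the tables list more than 1 transcript, and in 42 of these a single transcript took over 90% of the gene's TPM. The exceptions included Rpl18, where the leading transcript of 7 held 53.4%, Rps19 (57.5%), Rpl22l1 (57.9%), Rps13 (63.9%), Rpl10a (66.3%) and Rpl3 (70.0%). Rps24, which is known for alternative splicing at its 3′ end, had 97.8% of its TPM in the transcript of 402 coding bases.

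The genotype comparison asked whether loss of Tsc1 in adipocytes changed the level of these mRNAs in the whole gland. No member passed: edgeR's quasi-likelihood test called 0 of 79 members at an adjusted p under 0.05, against 7 of 12716 genes tested (0.055%), and DESeq2 also called 0 members. At an unadjusted p under 0.05 there were 0 members higher, against 6.31% of all genes, and 2 members lower, Rps2 and Rpl28, against 6.08% of all genes. DESeq2 gave 3 of 82 members at that level, all lower (Rps2, Rpl28 and Rps15), against 5.24% of all genes. With total counts the split turned, to 0 members lower (0.983% of all genes) and 2 higher, Rpl22l1 and Rpl7l1 (18.3% of all genes). None of these shares of members exceeded that of all genes. The knockout and wild-type libraries overlapped for all 79 members (1.32% of all tested genes did not overlap). In bulk tissue, fewer cells of a type and less RNA per cell cannot be told apart.

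Small differences nevertheless pointed the same way in most members. With TMM scaling, 75 of 79 log2FC values were below 0, against 51.7% of all genes; with scaling to total counts, 77 of 79 were above 0, against 82.9% of all genes. The median of the members was -0.11 with TMM scaling, where that of all genes was -0.01, and 0.09 with total counts, where that of all genes was 0.18, a shift of 0.19. Relative to the median gene the members were thus lower by a similar amount on both scales, -0.10 and -0.09. A change of scaling moves all genes by nearly the same amount, so the second value is not a separate check. The quartiles of the members' values were -0.14 and -0.07, with a median SE of 0.085. By subunit, 41 of 44 large-subunit genes (median -0.09), 31 of 32 small-subunit genes (median -0.12) and 3 of 3 stalk genes (median -0.14) were below 0 with TMM scaling. Because the 79 genes move together from library to library, this count is not 79 separate observations.

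**Figure D3:**
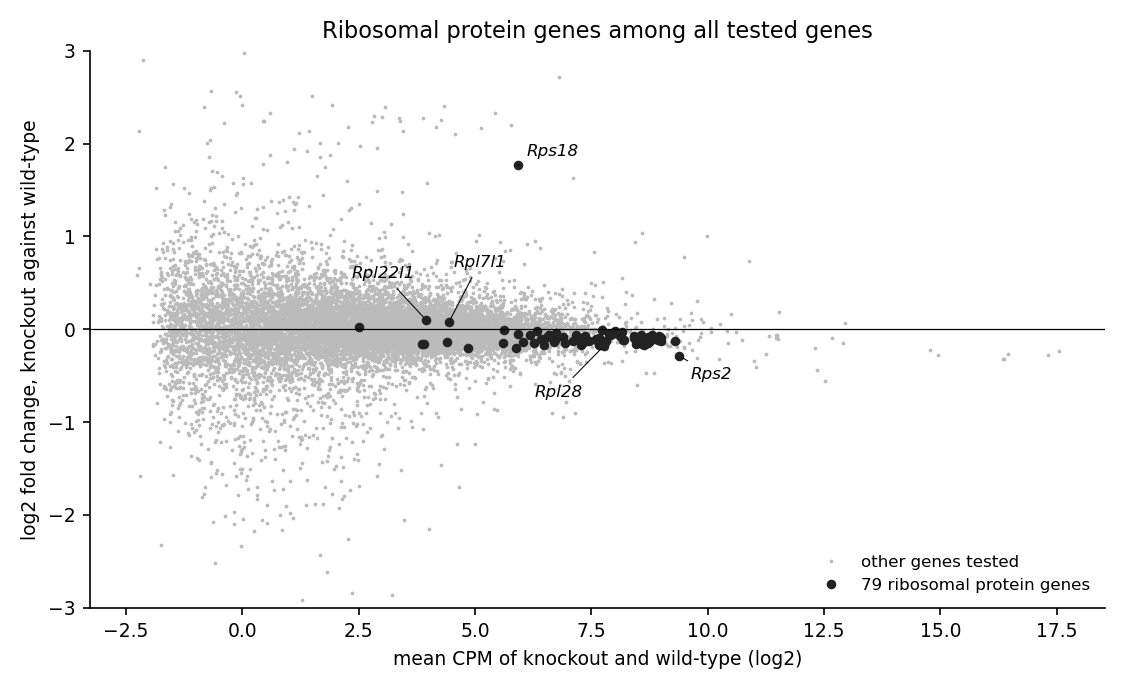
Log2 fold change, knockout against wild-type (y axis), against mean CPM on a log2 scale (x axis), for the 12716 tested genes; black points are the 79 members and 11 other genes lie beyond the axis limit of 3. The members form a narrow band just below 0 with TMM scaling, except Rps18 at 1.77.

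The common level of the members varied between libraries of one genotype by about as much as it differed between genotypes. After subtracting each gene's mean over the 11 libraries, the median member stood at -0.13, -0.10, 0.02, -0.02, -0.05 and 0.00 in knockout libraries 1 to 6 and at 0.10, 0.10, 0.01, -0.18 and 0.24 in wild-type libraries 1 to 5, on the log2 scale with TMM factors. The genotype means of these 11 values differed by -0.0957, against a pooled SD of 0.113 within genotypes. The extremes were both wild-type. Wild-Type 5 was the highest library for 62 of the 79 members, and Wild-Type 4 the lowest for 44, followed by Knockout 1 for 26. Leaving out Wild-Type 4 moved the median fold change from -0.11 to -0.16 and the number of members lower at an unadjusted p under 0.05 from 2 to 33 (all genes: 7.66%), still with 0 at an adjusted p under 0.05. Leaving out Wild-Type 5 moved the median to -0.06, with 1 member lower (Rps2; all genes 4.89%) and 1 higher (Rps18; all genes 6.1%) at that level. Wild-Type 5 also had the highest sum of B cell markers, 74.9 CPM, and Wild-Type 4 had 17.3 CPM. Knockout 1 had the highest sum of skeletal muscle markers, 2320 CPM, and Wild-Type 4 had 159 CPM. The sum of 6 luminal epithelial markers was at 674, 932, 636, 576, 727 and 820 CPM in knockout libraries 1 to 6 and at 566, 462, 541, 845 and 516 CPM in wild-type libraries 1 to 5, so that Wild-Type 4 was high and Wild-Type 5 low. Of these 6 markers, 5 were above 0 in log2FC (median 0.36), and of 15 milk protein genes 14 were below 0 (median -0.24), with TMM scaling and with none past an adjusted p of 0.05 by edgeR. With total counts 9 of the 15 milk protein genes were below 0 (median -0.05), and 5 of the 6 luminal markers above 0 (median 0.54). The part of these cell markers and milk genes in the members' levels was not tested.

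**Figure D4:**
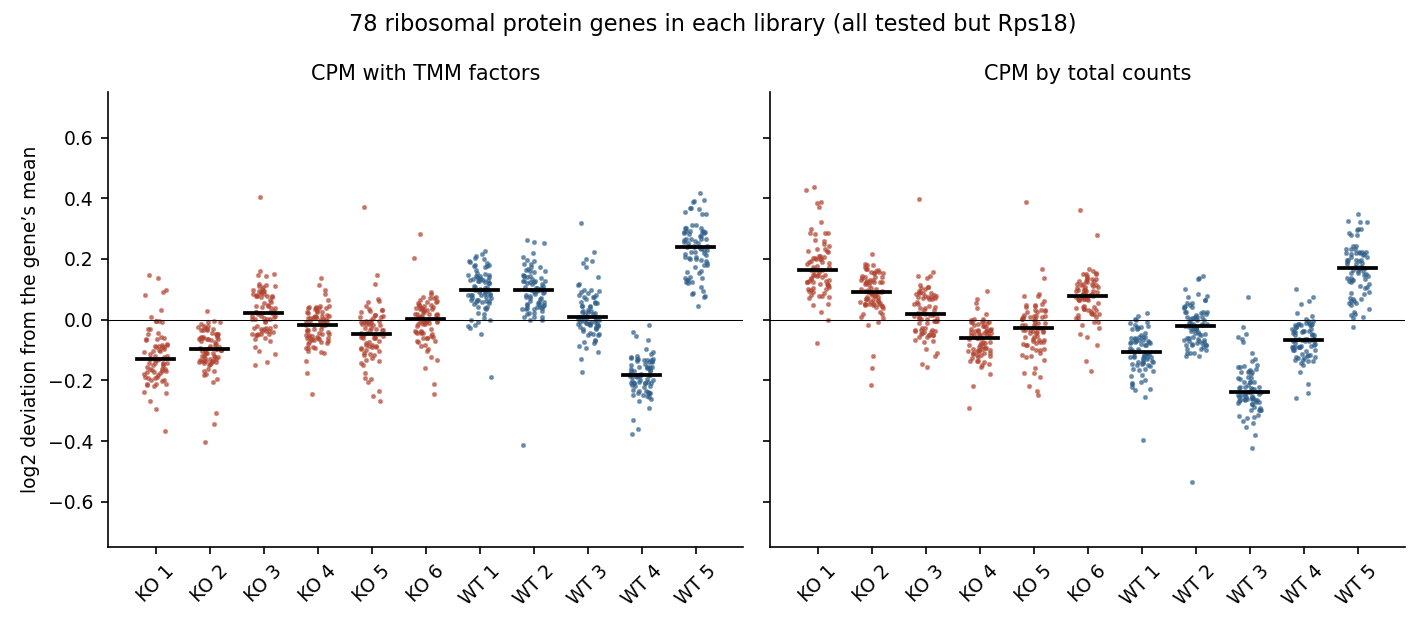
Deviation of each of 78 members (all tested but Rps18) from its own mean over the 11 libraries, on the log2 scale (y axis), by library; bars mark the median member. With TMM factors (left) WT 5 is highest and WT 4 lowest, and with total counts (right) WT 5 and KO 1 are highest and WT 3 lowest.

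As a share of all gene-assigned reads, the 84 members took 1.92%, 1.88%, 1.79%, 1.67%, 1.75% and 1.83% in knockout libraries 1 to 6 and 1.66%, 1.74%, 1.48%, 1.68% and 1.94% in wild-type libraries 1 to 5. The mean was 1.804% ± 0.0910 (knockout, SD, n = 6) and 1.70% ± 0.165 (wild-type, SD, n = 5), a difference inside the wild-type spread. The sign of the difference depended on the denominator. Outside the milk protein genes, the members took 5.42% ± 0.193 (knockout, SD, n = 6) and 5.72% ± 0.514 (wild-type, SD, n = 5). The members' share of TPM was 3.07% ± 0.292 (knockout, SD, n = 6) and 2.79% ± 0.318 (wild-type, SD, n = 5). In each of the 3 versions the groups overlapped. The difference in the share of all gene-assigned reads, 0.106 percentage points, was 0.05 without Wild-Type 3 and 0.165 without Wild-Type 5.

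Rps2 had the smallest p of the members. It encodes a small-subunit protein near the channel through which mRNA enters, and lies at chr17:24718116-24721929 on the plus strand. Knockout libraries ran from 508.4 to 700.1 CPM with a median of 599.7, and wild-type libraries 1 to 5 were at 762.0, 787.6, 753.2, 648.0 and 718.3 CPM. Of the 6 knockout libraries, 5 lay below every wild-type library, and Knockout 3 lay above Wild-Type 4. The log2FC was -0.29 (SE 0.09; edgeR unadjusted p = 0.00715, adjusted p = 0.278).

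Rpl28, a large-subunit protein of eukaryotic ribosomes without a bacterial counterpart, followed. Its knockout libraries ran from 189.9 to 216.2 CPM with a median of 208.3, and its wild-type libraries 1 to 5 were at 242.9, 231.4, 235.2, 194.5 and 258.3 CPM. Wild-Type 4 lay among the knockout libraries and the other 4 wild-type libraries above them all. The log2FC was -0.18 (SE 0.08; edgeR unadjusted p = 0.0432, adjusted p = 0.390). With total counts Rpl28 was at 0.02 and Rps2 at -0.09, both nearer 0.

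Next by p among the lower members were Rps15, a small-subunit protein near the decoding site (log2FC -0.17, edgeR adjusted p = 0.417), Rpl32 of the large subunit (-0.17, 0.460) and Rpsa, which is also known as the laminin receptor precursor (-0.17, 0.468). Rpsa was at 330.0 to 392.1 CPM in knockout libraries and at 428.5, 447.1, 386.1, 347.0 and 476.4 CPM in wild-type libraries 1 to 5. All 3 were above 0 by 0.02 to 0.03 with total counts. Rps6, which is phosphorylated by kinases downstream of mTORC1, was at 369.8 to 425.4 CPM in knockout libraries and at 472.3, 476.6, 429.6, 367.3 and 463.2 CPM in wild-type libraries 1 to 5, so that Wild-Type 4 was again the exception (log2FC -0.15, SE 0.08; adjusted p = 0.482 by edgeR).

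The members above 0 with TMM scaling were Rps18, described above, and Rpl22l1 (log2FC 0.10, SE 0.13), Rpl7l1 (0.07, SE 0.11) and Rpl39 (0.03, SE 0.12), with edgeR adjusted p-values of 0.798, 0.812 and 0.949. The last 3 lay within 1 SE of 0. Leaving out 1 library moved Rpl22l1 to between 0.02 (without Wild-Type 2 or Knockout 3) and 0.19 (without Wild-Type 5) and Rpl7l1 to between 0.00 (without Knockout 5) and 0.12 (without Knockout 6).

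The ribosomal stalk recruits the GTPases of translation, and the RNAs of its 3 proteins were slightly lower in knockout libraries with TMM scaling, and at 0.06, 0.00 and 0.05 (Rplp0, Rplp1 and Rplp2, log2) with total counts. Rplp0, the base of the stalk, was at 506.0 to 673.4 CPM in knockout and at 714.2, 703.6, 618.4, 551.4 and 678.6 CPM in wild-type libraries 1 to 5 (log2FC -0.13, SE 0.09). Rplp1 was at 54.5 ± 4.08 CPM (knockout, SD, n = 6) and 62.6 ± 10.6 CPM (wild-type, SD, n = 5), with a log2FC of -0.20 (SE 0.11). Rplp2 was at 61.6 ± 5.21 and 68.0 ± 8.93 CPM, with -0.14 (SE 0.09). Without Wild-Type 5 the value for Rplp2 was -0.06. With 1 library left out at a time, Rplp0 ran from -0.18 to -0.08 and Rplp1 from -0.28 to -0.11. In the ribosome the stalk holds several copies of the Rplp1 and Rplp2 proteins per Rplp0, but their RNA levels per length were not higher than that of Rplp0, with 330.6 TPM for Rplp0, 232.8 for Rplp1 and 255.0 for Rplp2 over all libraries. The edgeR adjusted p-values were 0.604, 0.471 and 0.549.

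Fau and Rps27a encode a ribosomal protein fused to a ubiquitin-like or ubiquitin domain. Fau was at 95.9 to 107.3 CPM in knockout and at 110.3, 107.1, 98.6, 95.6 and 134.1 CPM in wild-type libraries 1 to 5 (log2FC -0.12, SE 0.09; adjusted p = 0.597 by edgeR), and its log2FC was -0.03 without Wild-Type 5. Rps27a was among the members with the smallest difference, at 211.8 ± 13.6 CPM (knockout, SD, n = 6) and 213.6 ± 20.1 CPM (wild-type, SD, n = 5), with a log2FC of -0.01 (SE 0.08; adjusted p = 0.967 by edgeR).

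Paralogues are members whose sequence resembles that of a canonical protein, and some can replace it in some tissues. Rpl3l stands in for Rpl3 in striated muscle, and the 2 coding sequences are 74.2% identical. Rpl3l had 206, 57, 3, 1, 1 and 4 reads in knockout libraries 1 to 6 and 22, 2, 0, 17 and 3 reads in wild-type libraries 1 to 5. The sums of skeletal muscle markers were 2320, 333, 15.4, 3.01, 7.93 and 41.2 CPM in the same knockout and 221, 23.2, 1.95, 159 and 22 CPM in the same wild-type libraries. Knockout 1, Knockout 2, Wild-Type 1 and Wild-Type 4 were highest in both. Rpl3 was at 310.9 to 375.5 CPM in knockout and 371.8, 371.7, 322.9, 294.3 and 388.7 CPM in wild-type libraries.

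Rpl22, an RNA-binding protein of the large subunit known from T cell development, and Rpl22l1 are 69.3% identical over their coding sequences. Rpl22 was at 74.3 to 85.4 CPM in knockout and at 83.2, 80.7, 80.4, 69.4 and 91.8 CPM in wild-type libraries 1 to 5 (log2FC -0.02, SE 0.07). Rpl22l1 was at 13.9 to 20.3 CPM in knockout and at 15.1, 11.5, 16.3, 13.2 and 18.6 CPM in wild-type libraries 1 to 5. Per length it was below Rpl22 in every library, with a mean of 66.6 TPM against 260.7 TPM.

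Rpl7 and Rpl7l1 are 57.2% identical. Rpl7 had 310.5 TPM against 17.3 for Rpl7l1, the widest gap of the tested paralogue pairs. Rps27l, a p53-inducible paralogue of Rps27, is 77.1% identical to the sequence shared by Rps27 and Rps27rt. It was at 17.6 to 23.1 CPM in knockout and at 20.6, 21.4, 26.0, 20.3 and 21.97 CPM in wild-type libraries 1 to 5 (log2FC -0.14, SE 0.09; adjusted p = 0.542 by edgeR).

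Members kept close to one another from library to library. The SD of log2 CPM over the 11 libraries had a median of 0.136 over the tested members, against 0.178 over the 6878 other genes within the members' range of mean CPM and 0.242 over all tested genes. That range is wide, and the other genes were not matched to the members on level within it. Once the level of the median member in each library was taken away, the median SD fell to 0.063, and 69 of 79 members stayed under 0.1. The same step is not given here for another set of genes. Rpl26 (0.035) was among the tightest. The 7 members at 0.15 or above were Rps18 (3.40), Rpl22l1 (0.214), Rps29 (0.198), Rpl7l1 (0.191), Rps27l (0.174), Rpl39 (0.164) and Rps2 (0.160). Apart from Rps2, these have few reads or a near-identical copy: Rpl39 had a mean of 179 reads per library and Rps29 of 470 reads, against up to 20470 for the most counted member. Rpl38, with a mean of 456 reads, had an SD of 0.12, and the part of read number in the spread was not tested.

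RNA starts can be read from RefSeq promoters, 250 bases before to 50 after each start on GRCm38.p6, which matched 64 of the 84 members by symbol. A tract was counted where a C within 5 bases of the annotated start was followed, on the transcribed strand, by at least 4 pyrimidines. It was found for 30 of the 64 members (46.9%) and for 5718 of 27025 genes with a promoter (21.2%), or 23.9% of the 9780 other tested genes with one. The stretches from 15 bases before to 15 after the start, with the tract in capitals, are shown for 6 members that hold it, with clear and weak examples, and for 3 that do not.
Rps6, chr4:86857353-86857382, minus strand: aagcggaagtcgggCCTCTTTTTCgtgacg
Fau, chr19:6057932-6057961, plus strand: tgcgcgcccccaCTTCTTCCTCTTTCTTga
Rpl28, chr7:4792950-4792979, plus strand: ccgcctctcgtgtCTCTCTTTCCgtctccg
Rplp2, chr7:141447636-141447665, plus strand: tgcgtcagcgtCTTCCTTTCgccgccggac
Rps18, chr17:33955651-33955680, minus strand: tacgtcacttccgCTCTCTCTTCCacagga
Rps2, chr17:24720048-24720077, plus strand: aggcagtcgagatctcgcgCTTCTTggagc
Rplp0, chr5:115559452-115559481, plus strand: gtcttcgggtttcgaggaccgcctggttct
Rps15, chr10:80292416-80292445, plus strand: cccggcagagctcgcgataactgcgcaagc
Rpl7l1, chr17:46782642-46782671, minus strand: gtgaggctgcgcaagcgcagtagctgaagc

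The tract depends on where the annotation sets the start, and a missing match says only that these letters are not in this window. Tested members with and without it had similar fold changes with TMM scaling: the median was -0.10 over 29 genes with a tract, 26 of them below 0, and -0.11 over 30 genes without, 29 of them below 0. Searched on both strands over the whole window, CCGGAAG, the core bound by ETS factors, was present for 26 of 64 members (40.6%), for 9.9% of genes with a promoter and for 19.7% of the 9780 other tested genes. TATAAA was present for 7 of 64 members (10.9%), for 15.7% of genes with a promoter and for 8.7% of the other tested genes, so the members were below the one share and above the other. Read on the other strand, CCGGAAG is CTTCCGG, whose first 5 letters meet the definition of the tract, so those 2 searches overlap. TATAAA overlaps neither.

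Genes around the ribosome were read from lists written for this comparison. No gene of these lists passed an adjusted p of 0.05 by edgeR. Among ribosomal proteins outside the symbol rule, Rack1, a signalling scaffold on the small subunit, was at 316.2 ± 16.6 CPM (knockout, SD, n = 6) and 334.1 ± 30.1 CPM (wild-type, SD, n = 5).

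Of 16 other genes with TOP mRNAs, such as elongation factors, 14 were below 0 with TMM scaling (51.7% of all genes) and 16 above 0 with total counts (82.9% of all genes). These shares of all genes also apply to the lists that follow. At an unadjusted p under 0.05 there were 0 of the 16 (all genes: 6.08% lower and 6.31% higher). The smallest p belonged to Pabpc1, the cytoplasmic poly(A) binding protein (log2FC -0.12, SE 0.07; adjusted p = 0.492 by edgeR), and Eef1d, a subunit of the elongation factor eEF1 (-0.12, SE 0.07; 0.501).

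Ribosome biogenesis genes, which process ribosomal RNA and assemble the subunits, had a higher median than all genes with TMM scaling. The same held with total counts, a change that moves all genes nearly alike. Of 66, 47 were above 0 with TMM scaling (median 0.07) and 63 with total counts (median 0.26), and 4 had an unadjusted p under 0.05, all higher, a share near that of all genes (6.31%). Nhp2, a protein of the pseudouridylation complex, was between 14.7 and 18.0 CPM in the knockout libraries and between 11.6 and 15.8 CPM in the wild-type ones (log2FC 0.30, SE 0.09; adjusted p = 0.275 by edgeR). Utp20, a factor of small-subunit processing, was at 20.3 to 35.0 and 12.3 to 25.1 CPM (0.59, SE 0.22; 0.339). Whether biogenesis genes and ribosomal protein genes differ from each other was not tested.

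Of 78 tested mitochondrial ribosomal protein genes, 55 were below 0 with TMM scaling (median -0.06) and 68 above 0 with total counts (median 0.14). At an unadjusted p under 0.05, 8 of the 78 were lower (6.08% of all genes) and 1 of the 78 higher (6.31% of all genes). Mrps10 was at 7.56 ± 0.773 CPM (knockout, SD, n = 6) and 9.51 ± 1.12 CPM (wild-type, SD, n = 5; log2FC -0.33, SE 0.10; adjusted p = 0.274 by edgeR). Mrpl14 was at 8.61 ± 0.918 and 10.2 ± 0.538 CPM (-0.25, SE 0.09; 0.313).

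Chaperones that escort single ribosomal proteins to the nucleolus gave 6 of 10 genes below 0 with TMM scaling (median -0.07) and 0 of 10 with total counts (median 0.13). Heatr3 had between 9.38 and 14.9 CPM in the knockout libraries and between 8.11 and 10.6 CPM in the wild-type ones (log2FC 0.30, SE 0.12; adjusted p = 0.360 by edgeR), and Pdcd2, the chaperone of Rps2, had 8.70 to 10.6 and 9.69 to 11.9 CPM (-0.16, SE 0.08; 0.438). Among 17 tested regulators of ribosomal protein mRNAs, 13 were below 0 with TMM scaling (median -0.05) and 1 with total counts (median 0.13). Larp4 was at 0.36 (SE 0.17; adjusted p = 0.416 by edgeR) and Tial1 at -0.13 (SE 0.07; 0.501). Larp1, the cap-binding repressor of TOP mRNAs, was at 63.3 ± 5.79 CPM (knockout, SD, n = 6) and 63.8 ± 4.00 CPM (wild-type, SD, n = 5; log2FC -0.01, SE 0.08).

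**Figure D5:**
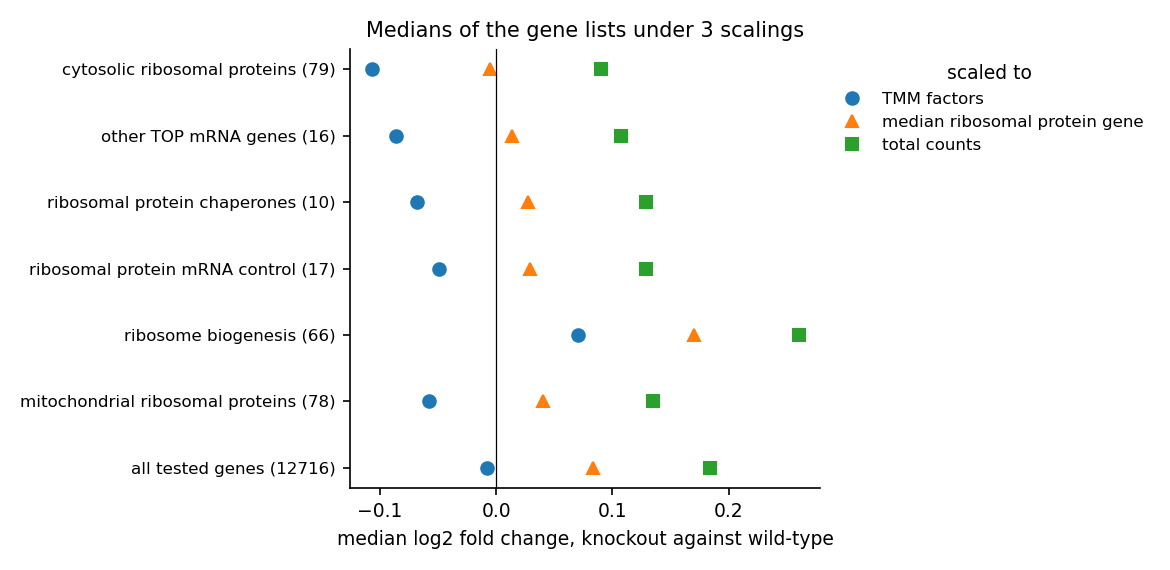
Median log2 fold change, knockout against wild-type (x axis), of the members and of the related lists (tested genes in brackets), under 3 scalings; the bottom line gives all tested genes. Cytosolic ribosomal proteins lie left of all genes and ribosome biogenesis genes right of them under each of the 3 scalings. A change of scaling moves all lists nearly alike, so the 3 are not separate checks.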

How the data were processed

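RNA from whole inguinal mammary glands was made into 6 knockout and 5 wild-type strand-specific libraries, per the labels' protocols. Per the submitters' processing notes the tools were Salmon 1.3.0 and DESeq2 1.28.1 and the build was GRCm38.p6. Per the file headers, the authors' deposited tables give each transcript's length, effective length, TPM and estimated count. All 56855 transcripts with a coding sequence in GENCODE M21 under the same version had a listed length within 3 bases of it, so untranslated regions were not counted. A deposited table of gene values normalized with DESeq2 by the authors (a signal on their scale) served for an alternative only.

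Estimated counts were summed per gene through M21 and rounded. The 752 unmatched transcripts (at most 0.265% of reads) were left out. Genes passing filterByExpr (12716) were tested for genotype with edgeR 4.0.16 (R 4.3.3): TMM factors, robust quasi-likelihood test, Benjamini-Hochberg adjustment over all genes, threshold 0.05. CPM values use TMM factors. SEs follow from the F statistic. The test was checked on simulated counts. DESeq2 1.42.0, limma 3.58.1 and other scalings, filters and left-out libraries were alternatives. Depth differed by under 1.5 times between libraries. Shared 31-base stretches and coding identities (Biopython global alignment) came from M21 coding sequences, start sites from RefSeq. Nothing says the same replicate number links a knockout and a wild-type library, and deviations of same-numbered pairs did not correlate (r -0.22 to 0.19 over 5 pairs).

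Named members were the 6 with highest TPM, up to 5 with smallest p in each direction (4 were higher), paralogues with their parents, the stalk and fused genes, the 3 lowest expressed and the 5 most variable around the library's median member, and from each related list the 2 genes with smallest p. Some genes are not reported here. Others were named as examples after their values were seen: Rps6, Rack1, Larp1 and the genes with several transcripts. Members and lists were chosen with earlier results of these data known.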

Additional observations from a re-analysis of the deposited data

Results flagged for a closer look

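In 52 sets of values, 1 per genotype for each of the 25 tested members chosen by the naming rule and for the members' share of reads, 4 had a single library far from the rest of its genotype, where chance gives about 1 in 20 (2.6). Rps18 accounts for 2 of them: Knockout 2 was at 0.955 CPM against 99.5 to 117.7 CPM in the other knockout libraries, and Wild-Type 5 at 132 CPM against 0.752 to 1.55 CPM in the other wild-type libraries. Rpl3 was highest in Knockout 5, at 375 CPM against 311 to 332 CPM. Rpsa was lowest in Knockout 1, at 330 CPM against 371 to 392 CPM; Knockout 1 also had the most skeletal muscle marker RNA (2320 CPM), and whether that bears on Rpsa was not tested.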

How the results depend on the processing

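The count of 0 members past the threshold held with every tool, scaling, filter and left-out library tried. With total counts in place of TMM factors the median fold change of the members was 0.09. Of the 25 members named and tested, 20 turned sign there: Fau 0.07, Rpl10 0.08, Rpl22 0.17, Rpl23 0.07, Rpl26 0.13, Rpl28 0.02, Rpl3 0.12, Rpl32 0.02, Rpl37a 0.03, Rpl7 0.14, Rplp0 0.06, Rplp1 0.00, Rplp2 0.05, Rps14 0.08, Rps15 0.03, Rps24 0.08, Rps27a 0.18, Rps27l 0.07, Rps29 0.04 and Rpsa 0.03. Scaled to the median member, Rpl22 (0.08), Rpl26 (0.04), Rpl3 (0.03), Rpl7 (0.04) and Rps27a (0.09) were above 0. With copies added, chosen after seeing the data, Rps18 was at -0.13. At an unadjusted p under 0.05, 1 member was lower with RLE factors (5.75% of all genes) or with scaling without milk genes (5.61%), and 2 were higher and 0 lower with total counts (18.3% and 0.983%). Rps18 was higher and Rps2 lower at that level with the replicate block (4.77% and 3.33%) and with limma on the authors' values (5.99% and 3.97%), where Rps18 was at 4.38 and 3.64. The members' share differed by 0.106 percentage points of reads, by -0.301 outside the milk protein genes and by 0.283 of TPM.

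Over all genes, 7 calls became 146 with DESeq2, 2 with limma on the authors' values and 0 with the replicate block; the cause was not tested. Under that block, whose replicate numbers do not pair libraries (only number 3 had its own number as the best correlated partner), Rpl39 was at -0.04 and no call on a member changed. Leaving out 1 library gave 0 to 28 calls over all genes (0 without Knockout 3 or Knockout 6, 28 without Knockout 2), 1 to 33 members at an unadjusted p under 0.05 (33 without Wild-Type 4) and member medians of -0.16 to -0.06. Of the 25 named members, leaving out Wild-Type 5 moved 10 nearer to 0 and 3 farther from it by over 1.5 times and turned the sign of 2. Leaving out Wild-Type 4 moved 2 nearer and 5 farther and turned 1, and each other library moved or turned at most 5. Rpl22 then ranged from -0.07 to 0.03, Rpl39 from -0.02 to 0.10 and Rps27a from -0.06 to 0.03.

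With 5 or 6 libraries a genotype and a median SE of 0.085, most single members lay within 2 SE of 0, and the few beyond did not pass the adjustment over all genes. Values of Rps18 and Rps27 are limited by read assignment between near-identical genes. Rpl39 and Rps29, with short coding sequences, rest on few reads. By the genotype, whole-gland RNA of the knockout mixes adipocytes without Tsc1 with cells that keep it, but Tsc1 RNA did not separate the genotypes.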

Other observations

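The split of libraries at Rps18 was also looked for in its neighbourhood on chromosome 17; the 3 neighbouring genes given here were chosen after their values were seen. H2-K1, a class I histocompatibility gene, was at 301.2, 131.5, 324.5, 278.8, 247.8 and 228.1 CPM in knockout libraries 1 to 6 and at 136.5, 152.5, 103.1, 149.1 and 340.8 CPM in wild-type libraries 1 to 5. The same 5 libraries, Knockout 2 and Wild-Type 1 to 4, were thus the low ones for H2-K1 and for Rps18. Vps52, a vesicle tethering gene, was at 31.8, 36.9, 30.4, 29.2, 34.2 and 29.8 CPM in knockout and 36.8, 44.9, 41.2, 38.1 and 34.3 CPM in wild-type libraries, and those 5 libraries were its highest. B3galt4 did not show the split, with knockout libraries from 3.99 to 5.89 CPM and wild-type ones from 4.25 to 6.35 CPM. What sets these 5 libraries apart was not tested, and the labels give no genetic background for single libraries.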
